A study of Mus musculus with 5 samples.

Results

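The 39 Hox genes of the mouse were followed through 4 sorted populations of bone marrow stem and progenitor cells. They were taken as every gene symbol in the matrices that starts with Hoxa, Hoxb, Hoxc or Hoxd and ends in a number, which gave 39 of 27998 genes. The cells came from the marrow of healthy wild-type C57BL/6 mice and were sorted by surface antigens, then profiled with droplet-based 3′ RNA sequencing. LSK cells lacked lineage antigens (Lin-) and were positive for SCA1 and KIT, and the rare haematopoietic stem cells (HSC) of the marrow fall into that gate. The remaining 3 gates were also Lin- and KIT+ but SCA1-. Common myeloid progenitors (CMP) were CD34+ and CD16/32-, granulocyte/monocyte progenitors (GMP) were CD34+ and CD16/32+, and megakaryocyte/erythroid progenitors (MEP) were CD34- and CD16/32-. No treatment or mutation separated the groups, and how many mice each gate pooled is not given in the sources used here.

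Hox genes encode homeodomain transcription factors and lie in 4 chromosomal clusters, in which neighbouring genes tend to be expressed together. In the embryo they set position along the body axis. In blood, members of the Hoxa and Hoxb clusters are known for their expression in stem and early progenitor cells and for being switched off as cells mature, and Hoxa9 with its cofactor Meis1 is a driver of leukaemia in mice. HOX proteins bind DNA together with PBX and MEIS proteins, and the KMT2A (MLL) complex and the Polycomb complexes hold their clusters in active or silent chromatin.

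The labels list 5 samples, of which the 2 CMP samples held identical matrices and were counted as 1 sample, so each gate was 1 library. There is therefore no replicate and no test for any difference, and every interval below is a 95% interval that covers counting error only. After filters, 10870 LSK, 3713 CMP, 8027 GMP and 6284 MEP cells remained, with 75167959, 26919088, 73362645 and 80273121 UMIs (unique molecular identifiers, each a counted RNA molecule) and a median of 5991.5, 6904, 9100 and 12578 UMIs per cell. Most genes of the gate antigens followed the labels. Ly6a, which encodes SCA1, had a level of 78.2, 1.49, 1.10 and 0.112 CPM across LSK, CMP, GMP and MEP, where CPM is the gene's count per 1000000 UMIs of the library. Cd34 had 399, 234, 118 and 0.498 CPM across the gates in that sequence, LSK to MEP, and the CD16 gene Fcgr3 had 0.838, 13.9, 208 and 0.149 CPM from LSK to MEP. The CD32 gene Fcgr2b separated GMP from CMP less, at 6.31, 33.8, 61.5 and 0.336 CPM across LSK, CMP, GMP and MEP. Between 36 and 130 cell barcodes were shared by any 2 libraries.

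The Hoxa cluster lies on the minus strand of chromosome 6 and the Hoxb cluster spans 174 kb on the plus strand of chromosome 11 (chr11:96194316-96368256), in the GENCODE M21 annotation of GRCm38. The 250 bases upstream of the RefSeq start (GRCm38.p6) are shown for the 4 genes with the highest levels, each 5′ to 3′ on the gene's strand. Whether these bases bear on the levels was not tested. Capitals mark TTTATG, a motif bound by CDX proteins, though Cdx1, Cdx2 and Cdx4 had no UMI in any gate.
Hoxa9, chr6:52227371-52227620, minus strand: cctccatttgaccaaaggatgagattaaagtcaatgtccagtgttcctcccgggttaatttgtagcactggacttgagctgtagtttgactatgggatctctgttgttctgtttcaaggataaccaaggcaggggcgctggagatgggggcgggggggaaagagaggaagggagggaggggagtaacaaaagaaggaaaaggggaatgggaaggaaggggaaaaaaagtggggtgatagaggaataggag
Hoxa7, chr6:52218574-52218823, minus strand: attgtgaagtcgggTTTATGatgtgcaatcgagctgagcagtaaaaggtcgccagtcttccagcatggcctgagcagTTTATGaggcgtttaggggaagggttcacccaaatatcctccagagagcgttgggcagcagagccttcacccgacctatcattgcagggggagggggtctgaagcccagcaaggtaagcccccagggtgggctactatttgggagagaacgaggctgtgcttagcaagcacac
Hoxa10, chr6:52240855-52241104, minus strand: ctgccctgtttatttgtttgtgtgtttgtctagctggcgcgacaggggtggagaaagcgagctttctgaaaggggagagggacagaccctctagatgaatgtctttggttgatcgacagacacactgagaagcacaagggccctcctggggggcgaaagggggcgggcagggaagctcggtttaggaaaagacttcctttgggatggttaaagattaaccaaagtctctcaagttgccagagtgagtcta
Hoxb4, chr11:96318017-96318266, plus strand: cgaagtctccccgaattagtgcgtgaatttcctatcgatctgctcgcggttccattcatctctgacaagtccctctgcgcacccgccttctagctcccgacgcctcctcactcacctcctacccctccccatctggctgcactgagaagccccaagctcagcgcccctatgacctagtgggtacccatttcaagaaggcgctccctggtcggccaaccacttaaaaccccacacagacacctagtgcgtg
Of the 39 members, 22 had an entry in the promoter table, with 24 windows in all. Besides TTTATG, 5 motifs were searched on both strands. TGATTNAT is bound by HOX with PBX proteins and TGACAG by MEIS proteins. AGATAA is bound by the Gata1 family of factors, while TGTGGT is bound by RUNX and CCGGAA by ETS factors. TTTATG stood in the windows of Hoxa7, Hoxb8, Hoxd3, Hoxd4 and Hoxd11 and in 10.8% of all 32841 windows of the table. TGATTNAT stood in those of Hoxa2 and Hoxd11, against 2.83% of all windows, and TGACAG in those of Hoxa2 and Hoxa3, against 15.9%. TGTGGT was found for Hoxd10 (14.0% of all windows) and CCGGAA for Hoxa10 (12.0%), there in a second window of that gene that is not shown. AGATAA stood in no Hox window, against 9.99% of all. A match is a description of these letters and not a bound site, and the motifs were chosen after the levels had been seen.

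Which Hox genes were present differed sharply between the 4 clusters. All 9 Hoxd genes had no UMI in any gate, which allows at most 0.0399, 0.111, 0.0409 and 0.0374 CPM across LSK, CMP, GMP and MEP (3 counts of each total). The 9 Hoxc genes together had 47 UMIs, the 10 Hoxb genes 5048 and the 11 Hoxa genes 22157. In all, 7 members reached 5 CPM in some gate (Hoxa3, Hoxa5, Hoxa7, Hoxa9, Hoxa10, Hoxb2 and Hoxb4) and 2 more reached 1 CPM (Hoxb3 and Hoxb5). Another 15 had UMIs but stayed under 1 CPM, and 15 had none (the 9 Hoxd genes, Hoxa11, Hoxa13, Hoxb13, Hoxc11, Hoxc12 and Hoxc13). LSK cells had UMIs of 24 members, CMP of 15, GMP of 16 and MEP of 18, and 9, 5, 4 and 4 members reached 1 CPM there.

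**Figure D1:**
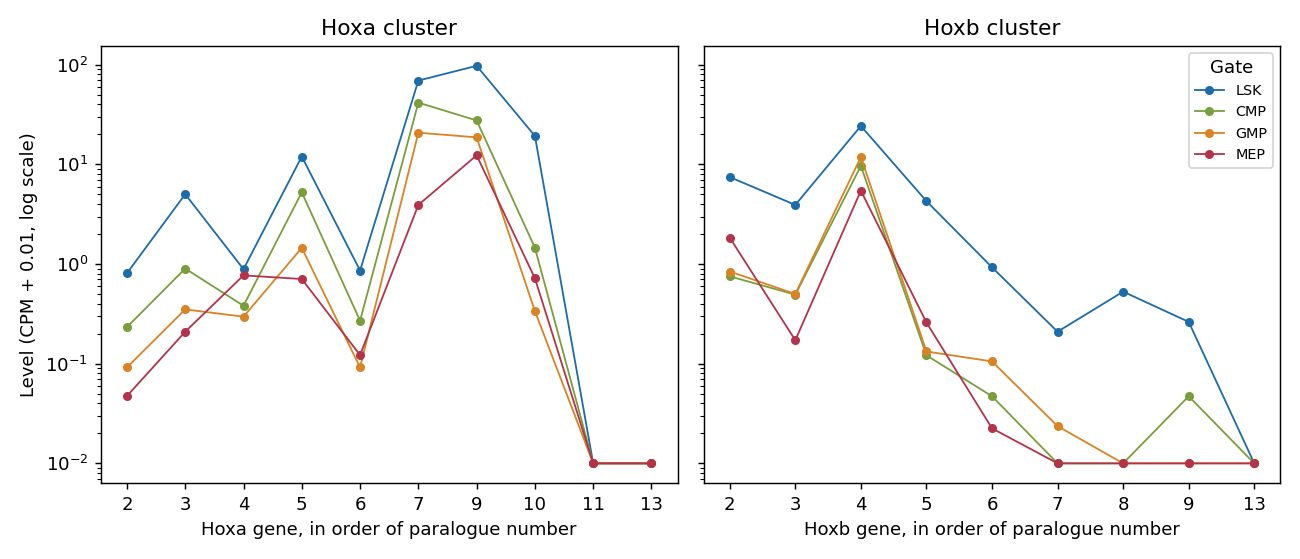
Level of the Hoxa genes (left) and Hoxb genes (right) from paralogue 2 on, in order of number, as CPM plus 0.01 on a log axis, with 1 line per gate. The Hoxa peak lies at Hoxa7 and Hoxa9, with Hoxa10 between it and Hoxa11, which has no UMI, and the Hoxb peak at Hoxb4.

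Summed over the 39 members, LSK cells had 248 CPM (95% interval 245 to 252) and CMP cells 88.8 CPM (85.3 to 92.5). GMP cells had 55.5 CPM (53.8 to 57.2) and MEP cells 26.5 CPM (25.4 to 27.7). The gates did not overlap and LSK was highest. Hoxa9 alone gave 39.3, 31.1, 33.7 and 46.5% of these UMIs across LSK, CMP, GMP and MEP, Hoxa7 27.9, 46.9, 37.5 and 14.8%, and Hoxb4 9.78, 10.9, 21.4 and 20.5% across the same gates. In a library sum, fewer expressing cells, less Hox RNA per cell and more UMIs of other genes per cell cannot be told apart. The median cell had 5991.5 UMIs in LSK and 12578 in MEP. As counts, there were 18664 Hox UMIs in 10870 LSK cells and 2128 in 6284 MEP cells.

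Hoxa9, a factor needed for full repopulating capacity of mouse stem cells, stood at 97.6 CPM in LSK, then 27.6 CPM in CMP, 18.7 CPM in GMP and 12.3 CPM in MEP. Hoxa7, its neighbour, stood at 69.4, 41.7, 20.8 and 3.91 CPM across LSK, CMP, GMP and MEP. Both were ordered LSK, CMP, GMP, MEP from high to low with intervals apart, but Hoxa7 was only 1.66-fold higher in LSK than in CMP (log2 ratio 0.73, 0.64 to 0.83), whereas it was 17.7-fold higher in LSK than in MEP. Hoxa10 had 19.3 CPM in LSK cells but only 1.45 CPM in CMP, 0.327 CPM in GMP and 0.710 CPM in MEP cells. It thus stood 13.3-fold higher in LSK than in CMP and 59.0-fold higher in LSK than in GMP (log2 ratio 5.88, 5.30 to 6.53). Hoxa5 had 12.0, 5.24, 1.44 and 0.698 CPM and Hoxa3 5.02, 0.892, 0.341 and 0.199 CPM across LSK, CMP, GMP and MEP. The intervals of Hoxa3 overlapped between GMP and MEP.

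Among the Hoxb genes, Hoxb4, known for expanding mouse stem cells when overexpressed, stood at 24.3, 9.66, 11.8 and 5.44 CPM across LSK, CMP, GMP and MEP. It was the member with the smallest LSK excess over GMP among the 9 that reached 1 CPM (log2 ratio 1.04, 0.92 to 1.15), and it was lower in CMP than in GMP (log2 ratio -0.29, -0.50 to -0.09). Hoxb2 had 7.45, 0.743, 0.831 and 1.83 CPM across LSK, CMP, GMP and MEP and was lower in GMP than in MEP (log2 ratio -1.14, -1.59 to -0.70), with overlapping intervals in CMP and GMP. Hoxb5, a gene used as a reporter of long-term stem cells in mouse marrow, had 4.27, 0.111, 0.123 and 0.249 CPM across LSK, CMP, GMP and MEP, the CMP value resting on 3 UMIs. Hoxb3 had 3.91, 0.483, 0.491 and 0.162 CPM across LSK, CMP, GMP and MEP. For these 2 genes LSK stood apart from the other gates, while the intervals of Hoxb5 overlapped among CMP, GMP and MEP and those of Hoxb3 between CMP and GMP and between CMP and MEP.

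**Figure D2:**
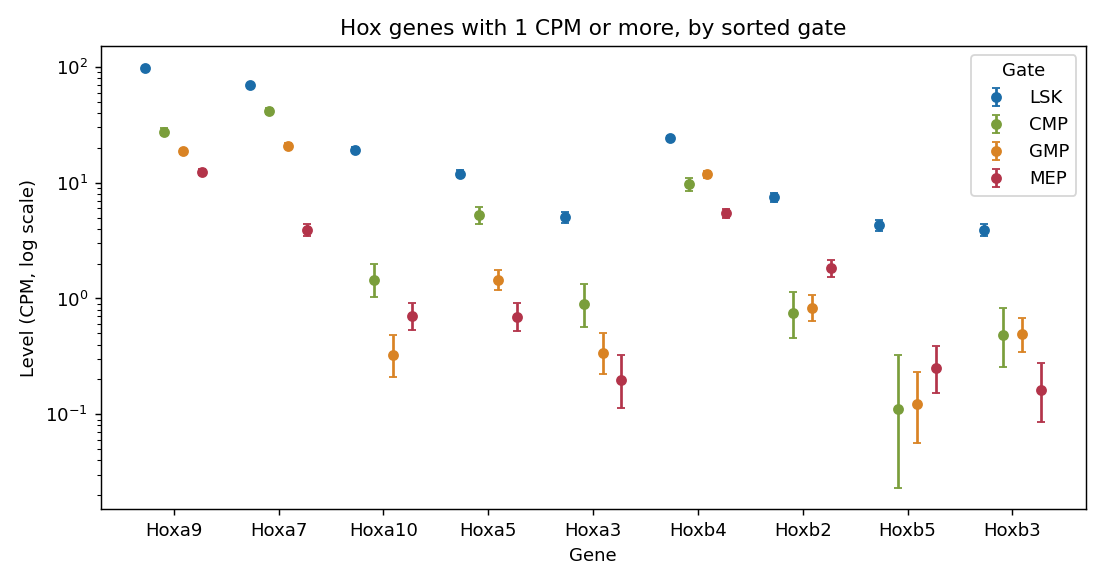
Level in CPM (log axis) of the 9 Hox genes with 1 CPM or more in a gate, in LSK, CMP, GMP and MEP from left to right; points are library sums and bars exact 95% Poisson intervals. LSK is the highest gate for all 9; with intervals apart, MEP exceeds GMP for Hoxa10 and Hoxb2, and GMP exceeds CMP for Hoxb4.

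A member was called higher where the ratio was 2 or more and the higher library had 5 CPM or more. In LSK against CMP, 6 of the 7 members at that level were higher in LSK, all but Hoxa7, where 15.5% of all 9458 genes tested were. In LSK against GMP and against MEP all 7 were higher in LSK, where 24.1% and 27.9% of genes were. Hoxa5 and Hoxa7 were higher in CMP than in GMP (2 of 4, against 6.39% of genes), and Hoxa7 only just (2.01-fold). Hoxa5, Hoxa7 and Hoxa9 were higher in CMP than in MEP (3 of 4, against 16.6%), and Hoxa7 and Hoxb4 higher in GMP than in MEP (2 of 3, against 14.6%). No member was called in the other direction in these 6 contrasts, where 2.34, 5.01, 8.54, 3.22, 11.0 and 13.1% of genes were. Members under the minimum could not be called. Among them, Hoxa4 had 0.878, 0.371, 0.286 and 0.760 CPM across LSK, CMP, GMP and MEP. Its log2 ratio was 0.21 (-0.32 to 0.73) for LSK against MEP and -1.41 (-2.20 to -0.67) for GMP against MEP. Members reached 5 CPM mostly through LSK, so the counts against LSK could hardly have gone the other way. Over genes whose level averaged at least 5 CPM between the pair of libraries, the median log2 ratio of Hox members was 1.33, 2.39 and 4.10 for LSK against CMP, GMP and MEP (5 members), and that of all genes 0.25, 0.32 and 0.18. Some members reached that average through LSK alone, such as Hoxa10 with 19.3 CPM in LSK and 0.710 CPM in MEP, so these medians lean the same way. Only Hoxa9 and Hoxb4 had 5 CPM in both LSK and MEP, with log2 ratios of 2.99 and 2.16. Scaling to typical genes in place of library totals lowered every LSK log2 ratio, by 0.38 against CMP, 0.54 against GMP and 0.52 against MEP with median-of-ratios factors. That left 3 members called in LSK against CMP (Hoxa9, Hoxa10 and Hoxb2), 5 in LSK against GMP (without Hoxa3 and Hoxb4) and 6 in LSK against MEP (without Hoxa3). Hoxb4 then had 19.0 CPM in LSK and 13.4 CPM in GMP, and Hoxa3 was at 3.91 CPM in LSK, under the minimum. Hoxa7 also missed the call in CMP against GMP, while the order of the gates stayed the same for the 7 members with 5 CPM.

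The balance of Hoxa7 to Hoxa9 does not depend on scaling and differed between the gates. There were 0.711 Hoxa7 UMIs per Hoxa9 UMI in LSK (0.686 to 0.737) and 1.51 in CMP (1.38 to 1.66). The ratio was 1.11 in GMP (1.03 to 1.20) and 0.317 in MEP (0.279 to 0.361). It also differed between clusters of cells within the gates. The 5 clusters made up of LSK cells lay between 0.627 and 0.790. The 4 CMP clusters had 1.67, 1.51, 1.02 and, in few dendritic-like cells, 3.40 (1.20 to 11.8). The 6 GMP clusters of 100 cells or more lay between 0.852 and 1.48, the monocyte-like ones at 1.24 and 1.48. The 4 erythroid-like clusters of the MEP gate had 0.409, 0.289, 0.220 and 0.190. Hoxa7 lies under the antisense gene Hoxaas3, whose own level was 4.40, 6.43, 3.30 and 2.44 CPM across LSK, CMP, GMP and MEP. Whether the counting used strand is not given in the sources used here, and whether reads of overlapping genes on opposite strands were kept apart was not tested. Hoxa3 overlaps Hoxa4, Hoxa5 and Hoxa6 on the same strand, and how reads shared among them were counted was not tested.

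Most cells of each gate had no UMI of a given Hox gene. The highest unthinned shares were 44.5% of LSK cells for Hoxa9 and 35.8% for Hoxa7. With cells thinned to 2000 UMIs, which left out 36 of 3713 CMP cells and none of the other gates, 40.1% of LSK cells (39.2 to 41.0, Clopper-Pearson) had a UMI of any Hox gene, 16.0% of CMP, 10.9% of GMP and 5.89% of MEP cells. Unthinned, the shares were 76.3, 43.3, 36.4 and 26.2% across LSK, CMP, GMP and MEP. Thinned shares across LSK, CMP, GMP and MEP were 18.2, 4.98, 3.97 and 2.82% for Hoxa9 and 13.3, 7.94, 4.15 and 1.07% for Hoxa7. They were 5.32, 2.18, 2.38 and 1.08% for Hoxb4 and 4.20, 0.381, 0.0747 and 0.143% for Hoxa10. The lowest share of any Hox gene in a cluster of 100 cells or more was 1.21%, in the erythroid-like cluster with the most haemoglobin RNA, whose cells had a median of 17075 UMIs before thinning. A second Hox gene was seen in few thinned cells: 7.29% of LSK cells had UMIs of 2 different members and 1.01% of 3 or more, while in MEP 0.255% had 2 and none had 3. Among 15 pairs of the 6 members with the most UMIs in LSK, the second gene was more frequent in cells with the first for 13 pairs, but the intervals were apart only for Hoxa9 and Hoxa7 (15.2% of cells with Hoxa9 and 12.9% of cells without it had Hoxa7). Depth was equal by thinning, and the part of cell type in these pairs was not tested.

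**Figure D3:**
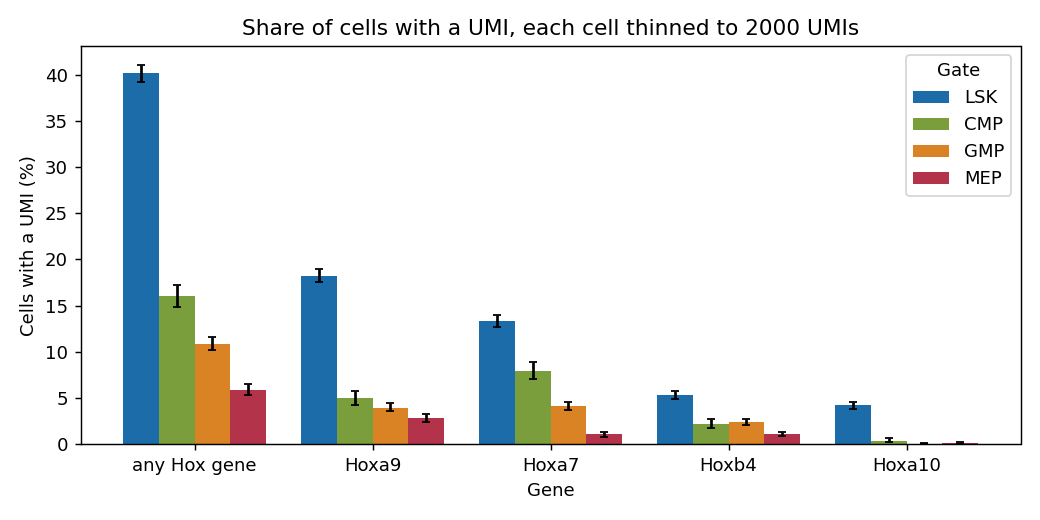
Percentage of cells with at least 1 UMI of any Hox gene or of Hoxa9, Hoxa7, Hoxb4 or Hoxa10, each cell thinned to 2000 UMIs (36 shallower CMP cells left out); bars are gates from LSK to MEP and error bars exact 95% Clopper-Pearson intervals. Any Hox gene is seen in 40.1% of LSK and 5.89% of MEP cells, and Hoxa7 is below Hoxa9 in MEP but above it in CMP.

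The cells were then clustered without any Hox gene and without doublets, and clusters were named where their markers allowed it. Library and cell type coincide for most clusters. The highest summed Hox levels were in 5 clusters made up almost only of LSK cells (180 to 341 CPM), and the lowest among clusters of 100 cells or more was in the erythroid-like cluster led by Hba-a1 (11.9 CPM). Taken by name, HSC/multipotent-like cells had 267 CPM, lymphoid-primed-like cells 227, megakaryocyte-like cells 95.9 and erythroid-like cells 25.4. These names pool unlike clusters. The HSC/multipotent-like clusters 4, 0 and 8 had 341, 287 and 180 CPM. Lymphoid-primed-like cluster 13, led by Dntt, had 266 CPM, and cluster 7, led by Fam64a, Dntt and Cep55, had 208 CPM. Mki67, a gene of dividing cells, was at 20.2 CPM in cluster 13 and 322 CPM in cluster 7. Megakaryocyte-like cells came from several gates, with 124 CPM in those of LSK, 49.1 CPM in those of CMP and 106 CPM in those of MEP, and at resolution 2 cells of that name had 147 CPM. These names moved with the clustering settings, so clusters are described by their leading genes.

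Within LSK, 1 cluster held 51.1 to 84.6% of the UMIs of Hoxb5, Hoxb6, Hoxb7, Hoxb8, Hoxb9 and Hoxc6 but 13.8 and 13.4% of those of Hoxa9 and Hoxa7. Cluster 4, of 1685 LSK cells, was led by Meg3, Sult1a1, Clec1a and Nupr1 and had the highest levels of the stem cell genes Mecom (210 CPM) and Procr (140 CPM). Its level of Mki67, a gene of dividing cells, was 10.5 CPM, the lowest of the 22 clusters. It held 17.0% of the LSK cells clustered and 12.9% of their UMIs. For Hoxb5 it held 145 of 284 LSK UMIs, which gave 17.3 CPM in this cluster and 2.45 CPM in the other LSK cells (log2 ratio 2.82, 2.47 to 3.17). Hoxb6 had 3.82 and 0.476 CPM (log2 ratio with an interval of 2.22 to 3.80). Hoxb8, a gene that blocks differentiation of mouse myeloid cells when overexpressed, had 32 of 38 UMIs in the cluster, or 3.82 CPM there and 0.106 CPM in the other LSK cells (log2 ratio 5.17, 3.90 to 6.72). Of Hoxb7, Hoxb9 and Hoxc6, 11 of 13, 11 of 18 and 20 of 27 UMIs lay in it. Hoxb6, Hoxb7, Hoxb8, Hoxb9 and Hoxc6, all under 1 CPM in every library sum, were thus above 1 CPM in this cluster, though for Hoxb7 and Hoxb9 the interval (0.655 to 2.35 CPM each) reached below 1 CPM. Hoxa4, also under 1 CPM in every library sum, had 2.03 CPM in cluster 4 and 0.723 CPM in the other LSK cells (log2 ratio 1.49, 0.58 to 2.34).

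Other members shared the direction with smaller ratios than Hoxb5 to Hoxb9 and Hoxc6. Hoxb2 had 18.7 CPM in cluster 4 and 5.79 CPM in the other LSK cells (log2 ratio 1.70, 1.41 to 1.97) and Hoxb3 8.59 and 3.12 CPM (1.46, 1.04 to 1.86). Hoxb4 had 42.8 and 21.7 CPM (0.98, 0.81 to 1.15) and Hoxa10 34.7 and 17.6 CPM (0.98, 0.79 to 1.17). Hoxa5 and Hoxa3 had log2 ratios of 0.75 and 0.76. Hoxa9 had 104 CPM in cluster 4 and 95.8 CPM in the other LSK cells (0.12, 0.01 to 0.22), and Hoxa7 had 71.8 and 68.7 CPM (0.06, -0.06 to 0.19). Hoxa2 and Hoxa6, at 1.19 and 1.31 CPM in cluster 4, had log2 ratios whose intervals included 0. The cluster was singled out after its values had been seen, and a cluster against the rest is a description with no test. With 4 other clusterings, chosen after seeing the data, the cluster that shared most cells with it held 1463 to 3580 LSK cells. At resolution 0.5 it held 137 of 284 Hoxb5 UMIs and 29 of 59 Hoxb6 UMIs, so no longer most of either. The log2 ratio in these clusterings ran from 2.58 to 2.86 for Hoxb5, from 4.21 to 5.37 for Hoxb8, from 3.01 to 4.21 for Hoxc6 and from 0.06 to 0.28 for Hoxa9.

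**Figure D4:**
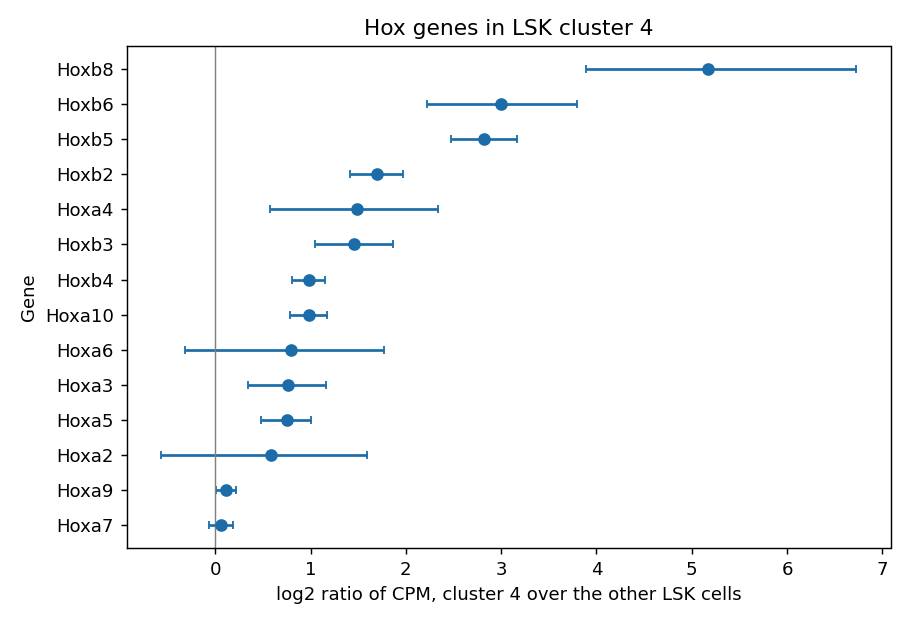
Log2 ratio of CPM in LSK cluster 4 over the other LSK cells for the Hox genes with 30 or more UMIs in both together; bars are exact 95% intervals for counting error. Hoxb8, Hoxb6 and Hoxb5 lie furthest right, Hoxb8 at 5.17 and Hoxb5 at 2.82, and Hoxa9 and Hoxa7 lie near 0.

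Hoxa9 was highest elsewhere. The lymphoid-primed-like cluster 13, led by Dntt, Arpp21 and Lck, had 126 CPM of Hoxa9 (118 to 134), against 104 CPM in cluster 4 (96.9 to 111). The same cluster had 15.7 CPM of Hoxa10, 2.75 CPM of Hoxb2 and 0.786 CPM of Hoxb5, each lower than in cluster 4. Lymphoid-primed-like cells as a whole had no Hoxa9 excess. Within LSK they had 99.3 CPM, as did HSC/multipotent-like cells (log2 ratio of the latter over the former 0.0003, -0.07 to 0.08). In thinned cells, Hoxa9 was seen in 22.9% of cluster 13 (20.5 to 25.5) and 20.7% of cluster 0 (19.4 to 22.0), with overlapping intervals. The share was 16.1% in lymphoid-primed-like cluster 7 and 19.7% in cluster 4. Hoxa7 was highest in cluster 0, led by Ltb, Procr and Hlf, at 80.2 CPM (76.3 to 84.3), and cluster 13 overlapped it at 78.9 CPM.

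In the erythroid-like cells of the MEP gate, clusters 3, 6, 9 and 12 had 21.7, 13.6, 10.6 and 5.36 CPM of Hoxa9 and 8.88, 3.94, 2.33 and 1.02 CPM of Hoxa7, with 21.8, 16.5, 30.2 and 336 CPM of the haemoglobin gene Hba-a1. Cluster 12 had the most Hba-a1 and the least Hox RNA of these 4. Monocyte-like cluster 5 of the GMP gate, at 7.87 CPM of Hoxa9, lay below clusters 3 and 6, and its interval (6.56 to 9.35) overlapped that of cluster 9 (9.10 to 12.2). Hoxb2 did not share that order, at 1.16, 1.13, 2.50 and 1.99 CPM in the same clusters. Depth differed between them too, with medians of 7076, 14602.5, 13951 and 17075 UMIs per cell, and its part in the CPM was not tested. Within MEP, the 203 megakaryocyte-like cells had 106 CPM of all Hox genes, against 25.2 CPM in the 5718 erythroid-like cells (log2 ratio 2.08, 1.79 to 2.35). Hoxa10 had 8.46 and 0.632 CPM in them, from 9 and 46 UMIs, and Hoxb5 had 5.64 and 0.151 CPM, from 6 and 11 UMIs. By the summed level, the MEP gate held both high and low cells.

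In the monocyte-like clusters 1 and 5 of the GMP gate, Hoxa10 had 1 and 0 UMIs, while Hoxb4 had 10.8 and 13 CPM. Hoxb4 lay between 10.2 and 13 CPM in all 6 GMP clusters of 100 cells or more and was 42.8 CPM at its highest. It was not flat across the clusters of other gates. In thinned cells, Hoxb4 was seen in 8.42% of cluster 4, but in 0.826% of erythroid-like cluster 9 and 0.0863% of erythroid-like cluster 12 (1 of 1159 cells). The GMP cluster led by Prss34, Prg2 and Fcer1a, genes of basophils and eosinophils, had 107 CPM of all Hox genes (91.9 to 123), beside 99.4 CPM (91.0 to 108) in the one led by Cpa3 and Prg2 and 34.7 to 86.7 CPM in the other 4.

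**Figure D5:**
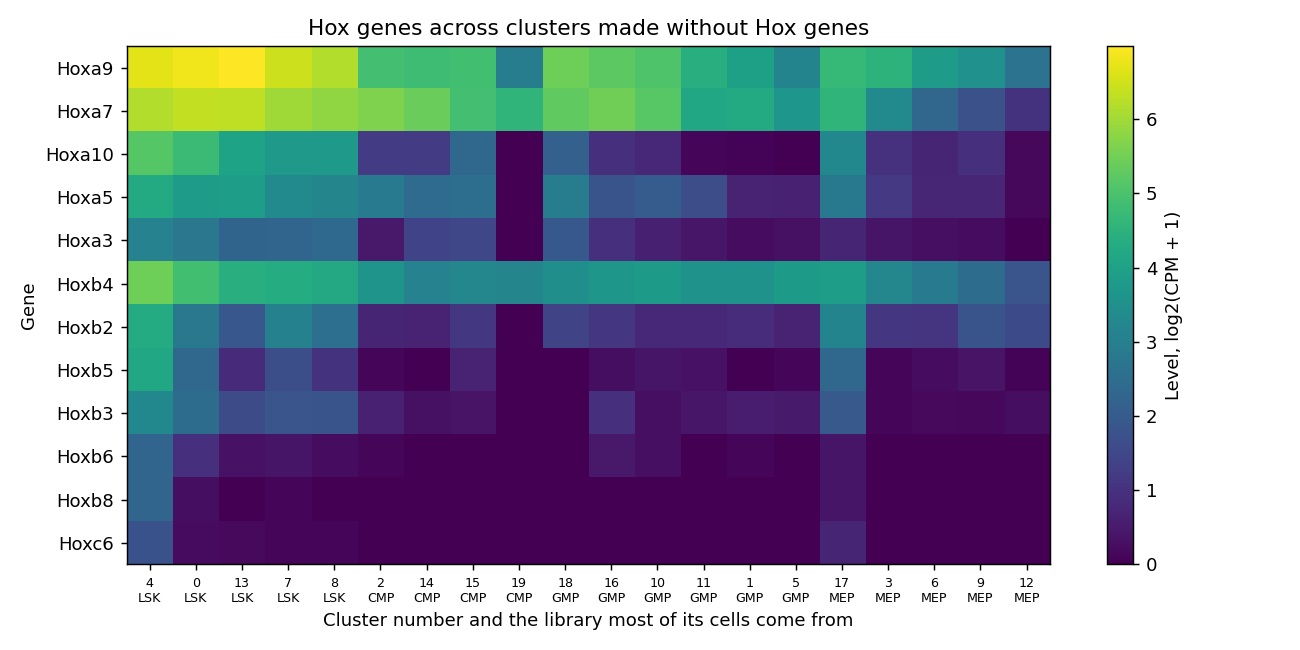
Level of 12 Hox genes, as log2(CPM + 1), in the 20 clusters of 100 cells or more, ordered by the library most of their cells come from and then by summed Hox level. Hoxb5, Hoxb6, Hoxb8 and Hoxc6 are brightest in cluster 4, Hoxa9 in cluster 13, and Hoxa10 is dark in the monocyte-like clusters 1 and 5.

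The cofactors were tallied from a list of 9 MEIS, PBX and PKNOX genes. Meis1, the main MEIS gene here, had 151, 38.0, 6.86 and 5.51 CPM across LSK, CMP, GMP and MEP. Pbx4 had 23.7, 21.1, 10.3 and 31.1 CPM across LSK, CMP, GMP and MEP, with its highest level in MEP, and Pbx2 had 21.3, 8.77, 9.51 and 13.4 CPM there. Of the 6 with 5 CPM, 3, 5 and 3 were called higher in LSK against CMP, GMP and MEP, where 15.5, 24.1 and 27.9% of all genes were, and none lower. Median log2 ratios were 1.04, 1.98 and 0.84 over 6 members, beside 0.25, 0.32 and 0.18 for all genes.

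Of 15 activators of Hox chromatin, 12 had 5 CPM, and 2, 3 and 2 of them were called higher in LSK against CMP, GMP and MEP and none lower, a share near or below that of all genes (15.5, 24.1 and 27.9%). Kmt2a, the MLL methyltransferase, had 89.7, 36.8, 21.9 and 36.2 CPM across LSK, CMP, GMP and MEP. Mllt3, which encodes AF9, had 45.2, 8.21, 3.45 and 79.4 CPM across LSK, CMP, GMP and MEP and was highest in MEP. So were Psip1 (193, 175, 101 and 262 CPM) and Mllt10 (103, 80.3, 67.5 and 121 CPM). Ash1l (89.1, 62.7, 51.1 and 45.2 CPM), like Kmt2a, was highest in LSK. Any part of these genes in the Hox levels was not tested. Cdx1, Cdx2 and Cdx4, activators of Hox genes in the embryo, had no UMI in any gate. Of 18 Polycomb genes, 7 were called higher in LSK in each of these contrasts and none lower, beside the same 15.5, 24.1 and 27.9% of all genes. Ezh1, Cbx2, Cbx7 and Phc1 were called in all of these contrasts, and the other genes called differed between them. Cbx7 had 10.1, 1.93, 1.19 and 3.44 CPM across LSK, CMP, GMP and MEP. The calls in this and the other lists rest on library totals. Median-of-ratios factors lowered every LSK log2 ratio, and some calls lay near the limit, such as Phc2 in LSK against CMP (log2 ratio 1.01). Ezh2, the Polycomb methyltransferase, had 173, 206, 163 and 250 CPM across LSK, CMP, GMP and MEP and was not called in a contrast with LSK.

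Of 10 genes reported as HOXA9 or MEIS1 targets in mouse cells, 4, 6 and 7 were called higher in LSK against CMP, GMP and MEP (all genes 15.5, 24.1 and 27.9%) and none lower. Flt3, a growth factor receptor, had 131, 39.9, 4.06 and 0.0747 CPM, Sox4 461, 160, 72.4 and 34.6 CPM and Erg 67.9, 22.4, 12.2 and 1.35 CPM across LSK, CMP, GMP and MEP. Myb had 138, 128, 169 and 153 CPM across LSK, CMP, GMP and MEP and was called in none of these contrasts. The 14 stem cell transcription regulators, which share members with the cofactor list (Meis1 among them), had 9, 12 and 11 called higher in LSK (all genes 15.5, 24.1 and 27.9%) and 0, 0 and 1 lower (all genes 2.34, 5.01 and 8.54%), the last being Gfi1b against MEP. Of 16 antisense and noncoding genes of the Hox clusters, 9 were in the matrices. Hoxb3os, which lies over Hoxb2 and Hoxb3, had 8.39, 1.34, 1.01 and 0.723 CPM across LSK, CMP, GMP and MEP, and Hoxb5os, over Hoxb5 and Hoxb6, had 4.70, 0.409, 0.164 and 0.137 CPM across LSK, CMP, GMP and MEP.

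Across the 20 clusters of 100 cells or more, the genes whose log2(CPM + 1) followed the summed Hox level most closely were Nipsnap1 and Fam69b (Pearson r 0.968 each), Gm12216, Eya1 and Haghl (0.963 each), of 7401 genes compared. Meis1 was at rank 151 with r = 0.897. The clusters come from 4 libraries with different depths, so this is a description and no test.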

How the data were processed

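Bone marrow cells of 4 sort gates were run on the 10x Genomics 3′ platform for single cells, per the labels' protocols. The authors deposited count matrices (whole UMIs for each gene in each barcode) without normalization. The submitters' processing notes name the mm10 build, Cell Ranger 2.0.0 and Seurat 2.3.0, with CASAVA 1.8.2. The design text states 10882 LSK, 12185 CMP, 8064 GMP and 6370 MEP cells; 10883 LSK barcodes with 2110 or more UMIs of 737280 were taken, and the matrices held 3738, 8064 and 6370 barcodes for CMP, GMP and MEP. The other CMP cells were not analysed here. Barcodes under 500 genes or over 10% mitochondrial UMIs were dropped.

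Counts were summed per library or cluster and divided by the total (CPM), with exact Poisson intervals, exact conditional binomial intervals for ratios and exact Clopper-Pearson intervals for shares, at 95%. In the contrasts of gates a count under 3 was set to 3. Thinning drew 2000 UMIs per cell without replacement. Doublets were scored against simulated pairs; 945 LSK, 110 CMP, 515 GMP and 316 MEP cells were removed before clustering. Clustering used 2000 variable genes without Hox genes, 30 components, 15 neighbours and Leiden resolution 1 (leidenalg 0.10.2), with no batch correction; clusters were named from marker lists that held no Hox genes. TMM factors came from edgeR 4.0.16. Other genes were named as up to 4 of each list with the highest CPM or the 5 with the most similar pattern; others named were chosen after their values were seen. The calculation of calls was also run on simulated data, with an outcome that is not given here. Such a run cannot stand in for replicate libraries. The members and lists were chosen with earlier results of these data known. Some genes are not reported singly here, though sums and counts over lists include them.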

Additional observations from a re-analysis of the deposited data

Results flagged for a closer look

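Hox RNA was also present in LSK barcodes outside the cells. The 426182 barcodes of 1 to 100 UMIs held 280 Hox UMIs of 1179757, or 237 CPM, and the 82605 barcodes from 101 UMIs up to the minimum for a cell held 5341 Hox UMIs, or 255 CPM, where the LSK cells had 248 CPM. Hoxa9 had 94.1 CPM in the first set and 86.1 CPM in the second, and Hoxb8 had 0 and 10 UMIs. Each value was listed because it lies outside the cells compared and above the limit that a count of 0 allows. The part of free RNA in the shares of cells with a Hox UMI was not tested.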

How the results depend on the processing

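Of 88 values recomputed for the main results, 58 stayed within the limits set for a change and 30 moved, and none reversed. Of 140 for single genes, 104 stayed and 36 moved. Members called in LSK against CMP numbered 3 with median-of-ratios factors, in place of 6. In CMP against GMP 1 was called with a minimum of 10 CPM (Hoxa7), and 1 with median-of-ratios factors, TMM factors or doublets removed (Hoxa5), in place of 2. With a minimum of 1 CPM, 5 were called in CMP against MEP and 4 in GMP against MEP, in place of 3 and 2, Hoxb2 being higher in MEP in both. All Hox genes had 194, 202 and 274 CPM in LSK with median-of-ratios factors, TMM factors and a mean over cells, 62.8, 61.4 and 57.6 CPM in GMP and 29.6, 29.1 and 32.4 CPM in MEP. The share of cells with a Hox UMI was 61.2, 29.3, 19.6 and 11.5% in LSK, CMP, GMP and MEP at 4000 UMIs per cell, which left out 1863, 630, 508 and 313 shallower cells of these gates, and 76.3, 43.3, 36.4 and 26.2% unthinned. HSC/multipotent-like cells had 341 CPM at resolution 0.5 and 262 CPM with 1000 variable genes. Lymphoid-primed-like cells had 240.2 CPM at resolution 0.5, 240.1 CPM with 1000 variable genes and 238 CPM with a second seed, and megakaryocyte-like cells had 147 CPM at resolution 2. Fewer or more cells carry each name in these settings; otherwise the cause was not tested. Granulocyte-monocyte progenitor-like cells were not named in the main clustering. No paired analysis was possible because each gate had 1 library. Depth limits what can be said of members with few UMIs: a count of 0 in CMP allows 0.111 CPM, close to the level of Hoxb5 there.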
